A study of Mus musculus with 18 samples.

Results

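Oocytes from primary follicles were compared with oocytes from primordial follicles in mice of the sham group. The members are the 3 libraries labelled as primary follicle oocytes and the 3 labelled as primordial follicle oocytes, both sham, so 6 of the 18 samples of the series. They are all the libraries with those labels. All genes were read, and 10522 of the 53715 genes in the count table passed the filter on low counts and were tested.

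The series holds RNA sequencing of oocytes of 3 stages from sham mice and from mice of a treatment that the labels call NTY without explaining it. All mice were of the strain C57Bl/6j x CBA/J, and all samples used here are marked as in vivo. No genotype, age or number of animals is given for either stage, and the sham procedure is not described. By the labelled protocol, microdissected cells were collected on caps, the RNA of caps of the same oocyte stage was pooled, and it was amplified before TruSeq RNA Access libraries, which capture coding RNA, were made. That these libraries were microdissected was read from the labelled protocol. A library is thus a pool of cut-out cells, and the labels do not say whether libraries come from separate animals. The p-values therefore measure the spread between libraries, which may be technical. The tests of single genes draw that spread from the 12 primordial and primary follicle libraries of both treatments, not from the 6 sham libraries alone.

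A primordial follicle is a resting oocyte, arrested in meiotic prophase, inside a single layer of flat pregranulosa cells. On activation the granulosa cells become cuboidal and divide, and the oocyte starts to grow, makes its zona pellucida and builds up stored maternal RNA. KIT and PI3K signalling moves the transcription factor FOXO3 out of the oocyte nucleus in this transition, mTOR activity in granulosa cells and oocyte promotes it, and ligands of the TGF-beta family pass between the oocyte and its granulosa cells.

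The primordial sham libraries held 15149564, 29205503 and 21086068 counts and the primary sham libraries 23930436, 22572216 and 23410138. Levels of a gene are given in CPM, its counts per 1000000 counts of the library, with library sizes scaled by TMM, a method that corrects for the composition of each library. Levels of different genes are compared only in TPM, the authors' values per gene length. The smallest level that 3 counts could show in these libraries, before TMM scaling, lay between 0.103 and 0.198 CPM. Such floors cover counting error only, because amplified reads are not independent molecules.

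The label was checked against 10 oocyte markers, all of which had counts in the sham libraries. Their summed level was 56.2, 1219 and 643 CPM in the primordial libraries and 703, 272 and 286 CPM in the primary libraries, and Dazl, an RNA-binding protein of germ cells, had the highest mean TPM of them. Here and below the most abundant gene of a list is the one with the highest mean TPM over the 6 libraries, which single libraries may carry, as primordial replicate 2 does for Dazl. Ddx4, the germ cell RNA helicase, had 72, 1749 and 6114 counts in the primordial and 3042, 3716 and 1073 in the primary libraries, so each library held germ cell RNA. Primordial replicate 1 stood apart as the shallowest library, the one with the fewest genes and the one with the lowest sum of oocyte markers. The sums of the stages overlapped.

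Markers of other cells were also present. The 14 granulosa markers summed to 751, 927 and 3414 CPM in the primordial and 1459, 1844 and 2615 CPM in the primary libraries, with Wt1 the most abundant and Fshr at 0 in all 6. The 8 stroma markers, led by Col1a1, summed to 1416, 1840 and 9810 CPM and to 2019, 5592 and 2163 CPM. Both somatic sums overlapped between the stages. Markers of endothelium (8 genes, led by Tek, Flt1 at 0 in all 6) summed to 811, 63.7 and 37.0 CPM in the primordial libraries and to 0.467, 42.3 and 0.184 CPM in the primary ones, so primordial replicate 1 was the highest through 12584 counts of Tek.

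The 8 surface epithelium markers, led by Krt19, with Lrrn4 and Msln at 0 in all 6, summed to 208, 0.110 and 0 CPM in the primordial and to 50.5, 2701 and 107 CPM in the primary libraries. The 10 pregranulosa markers share 3 keratins with them and were led by the same gene, with 288, 329 and 916 CPM against 227, 3368 and 247 CPM. Primary replicate 2 was the high library in both, with 41859 counts of Krt19. Of the 7 smooth muscle and pericyte markers (led by Acta2) the sums were 76.0, 106 and 68.2 CPM against 259, 130 and 71.6 CPM, and those of the 13 theca and steroid genes (led by Ptch1) were 93.2, 331 and 1266 CPM against 773, 783 and 664 CPM. The 9 leukocyte markers, led by Lyz2, with Ptprc, Csf1r, Adgre1 and Tyrobp at 0 in all 6, summed to at most 2.61 CPM in any library. The 7 red blood cell markers, led by Hba-a1, with Hbb-bt, Alas2 and Slc4a1 at 0 in all 6, reached 30.4 CPM in primary replicate 1 and at most 0.0961 CPM elsewhere. What part these cells have in the differences between the stages was not tested. In pooled samples fewer cells of a type and less RNA per cell cannot be told apart.

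The primary sham libraries, which like the primordial ones also held markers of other cells, yielded more kinds of transcript than the primordial sham libraries. At least 1 count was found for 6147, 9229 and 9852 genes in the primordial and for 12955, 10565 and 13755 genes in the primary libraries. Each primary library held more genes than each primordial library, with means of 8409 ± 1984 (SD, n = 3) and 12425 ± 1660 (SD, n = 3). The difference of 4016 genes gave p = 0.1 in a two-sided exact permutation test, the smallest value that 3 libraries against 3 allow. With every library thinned at random to the 15149564 counts of the shallowest, the genes numbered 6147, 8802 and 9570 against 12529, 10252 and 13285, so the groups did not overlap at equal depth either. In NTY mice the primary libraries held 713 fewer genes than the primordial ones on average (exact permutation p = 0.8). The label codes of primary NTY replicates 2 and 3 share their letter, and whether these libraries hold the same material is not given. If they do, this test and all NTY values below rest on 2 independent primary libraries.

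**Figure D1:**
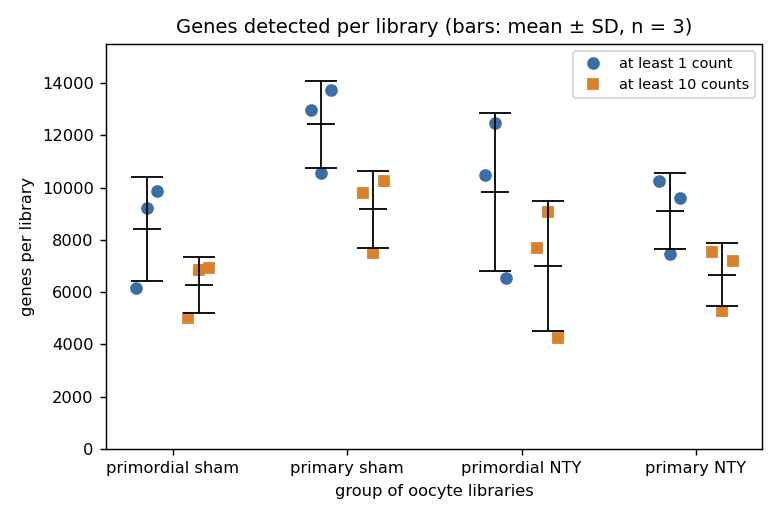
Genes with at least 1 count (circles) and at least 10 counts (squares) in each of the 12 libraries of primordial and primary follicle oocytes, by group, as genes per library, with bars for mean ± SD (n = 3). The 3 primary sham libraries lie above the 3 primordial sham libraries, from 10565 against up to 9852 genes with at least 1 count, whereas the NTY groups overlap.

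Presence was also more regular in the primary libraries. Where a gene reached 10 counts in some primary sham library, it did so in all 3 of them in 50.4% of cases, against 31.1% among the primordial sham libraries. At least 10 counts in all 3 primary libraries and in none of the primordial ones were found for 378 genes, of which 116 had no count at all in the primordial libraries. The reverse pattern was found for 1 gene, Zfp317, a zinc finger gene that was chosen after its values were seen. Of the 378 genes, 316 had at least 10 counts in at least 1 primordial library of the NTY group, and 50 had them in all 3. The share of cases with 10 counts in all 3 libraries was nearly level in NTY, at 31.4% for primary and 29.6% for primordial. The sets of genes had the other order in NTY than in sham. In NTY 40 genes were found in all 3 primary and no primordial library at 10 counts, and 93 the reverse.

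The levels of the tested genes were less alike among primordial than among primary replicates in sham. Across the 10522 genes, which are not independent of each other, the Spearman correlation between sham libraries was 0.397 to 0.448 over the 3 primordial pairs and 0.568 to 0.749 over the 3 primary pairs. Between a primordial and a primary library it was 0.446 to 0.560, so 2 primordial replicates resembled each other no more than they resembled primary libraries. In NTY the order was the other way, with 0.444 to 0.587 over the primordial and 0.394 to 0.428 over the primary pairs. The squared relative spread between replicates, the common dispersion of the edgeR fit over the 12 libraries, was 3.595.

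Against this spread the stage difference passed the test at 1 gene. H2ac4, a histone H2A gene of the large histone cluster, was higher in the primary libraries. The edgeR quasi-likelihood test gave an adjusted p under 0.05 for this 1 of 10522 genes (0.0095%). A description that needs no test is the number of genes whose groups do not overlap. By it, 1313 genes (12.5% of those tested) were higher in every primary library than in every primordial library, and 183 (1.74%) were lower in every primary library. The genes that were higher were mostly sparse or missing in the primordial libraries, while most of those that were lower were found at both stages.

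The median level of the 1313 genes was 17.6 CPM in the primary and 0.156 CPM in the primordial group, and 677 of them (51.6%, against 15.3% of all genes tested) had under 10 counts in every primordial library. The median level of the 183 genes was 46.0 CPM in the primary and 221 CPM in the primordial group. Among the 2631 genes with the highest mean over the 6 libraries, from 73.8 CPM up, 142 genes were higher and 128 lower, so the directions were nearly even there. Among the 2631 genes with the lowest mean, up to 2.97 CPM, they were 383 and 15. The filter lets a gene pass through a single group in which it is high. Of all genes tested, 1090 had at most 3 counts in every primordial sham library and 94 in every primary sham library. How far the filter sets the 383 and 15 was not tested. The longest transcript had a median of 3384 bases for the genes that were higher, 4314 bases for those that were lower and 3616 bases for all genes tested, and the GC content was alike, at 49.7%, 49.0% and 49.7%. Protein-coding genes made up 96.7%, 94.5% and 95.8%.

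The size of this split depends on scaling. The median log2 fold change over all genes tested was 0.29 with TMM and 0.00 with RLE, the size factors of DESeq2, so single fold changes are read relative to a shift of that size. With RLE, 1180 genes were higher and 298 lower. With plain library totals, 1529 were higher and 116 lower.

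H2ac4 (ENSMUSG00000061615, named Hist1h2ab in GENCODE M21, mm10 chromosome 13 from 23751126 to 23751598, plus strand) had 2, 3 and 1 counts in the primordial and 3115, 15407 and 2279 counts in the primary libraries. Its level was 0.127, 0.110 and 0.0481 CPM against 97.0, 669 and 69.9 CPM. The gene was thus at the floor in each primordial library and well above it in each primary one. The log2 fold change was 11.45 ± 2.03 (SE) with an adjusted p = 0.00985 (edgeR, Benjamini-Hochberg over all genes tested), higher in 3 of 3 libraries. From pooled counts the ratio was 2524, with an exact 95% interval of 1159 to 6878 that covers counting error only. Primary replicate 2 held most of the primary counts, and without it the log2 fold change was 9.72. In the 14 alternatives that gave an adjusted p for H2ac4 it lay between 6.3e-07 and 0.549, and in 4 of them it was 0.05 or more. The highest value, 0.549, is from the edgeR fit of the 6 sham libraries alone, which called 0 genes, with 455 at an unadjusted p under 0.05. The 4 also include the edgeR fits without primordial replicate 1 and without primordial replicate 3, which each left 0 genes called, with 840 and 1296 at an unadjusted p under 0.05. DESeq2 with its Cook filter on outlying counts gave no p for H2ac4. DESeq2 without that filter called 767 genes and limma voom 143, so the number of calls depends on the tool.

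The other named genes are those with the smallest p among genes without overlap and with a mean of at least 10 CPM, of which 10 were taken in each direction, H2ac4 included. Apart from H2ac4 none of them passed the test, with adjusted p of 0.473 or more (edgeR). Their groups do not overlap because the rule asked for it, so this separation is a description and supports nothing. All 20 were also without overlap with RLE, with plain totals and in TPM.

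Of the genes that were higher, 3 are replication-dependent histone genes, and others act in splicing, protein folding and turnover, endocytosis and cell contact. H2ac15, another H2A gene, had 28, 5 and 1 counts against 7577, 1922 and 23520 (log2 fold change 9.02 ± 2.17 SE). H2bc15, an H2B gene, had 0, 155 and 6 counts against 12364, 29626 and 24358 (log2 fold change 8.66 ± 2.73 SE). Single libraries moved both values, to 11.39 for H2ac15 without primordial replicate 1 and to 12.32 for H2bc15 without primordial replicate 2. In TPM, H2bc15 was the most abundant of the 10 genes in each primary library, at 4697, 10284 and 7952.

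Snrnp27, which encodes a protein of the spliceosomal tri-snRNP, had no count in any primordial library and 10301, 5799 and 4050 counts in the primary libraries. Its mean primary level was at least 1567-fold higher than the mean level that 3 counts per library show in the primordial group. Btbd11, a gene with a BTB domain, was likewise at 0 in the primordial libraries and had 1916, 8633 and 305 counts in the primary ones, at least 998-fold higher by the same floor. Primary replicate 2 carries most of that bound, with 375 CPM against 59.7 CPM in primary replicate 1 and 9.35 CPM in primary replicate 3. The fitted log2 fold change of Btbd11 was 14.77 with it and 12.69 without it. Over a group at 0 counts such fitted values are neither exact nor bounds. Snrnp27 and Btbd11 were both found in a complete set of primary libraries and in no primordial library.

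Fkbp3, a nuclear prolyl isomerase of the FK506-binding family, had 0, 6 and 2 counts against 2751, 3101 and 6414. Ubqln1, a ubiquilin that carries ubiquitinated proteins to the proteasome, had 0, 0 and 1 against 7734, 575 and 2950. Dab2, a clathrin adaptor of endocytosis, had 18, 7 and 13 against 8030, 1772 and 11132. None of these 3 exceeded 18 counts in a primordial library. Dmd, the gene of dystrophin, had 0, 1 and 10 counts against 4550, 1700 and 5212, and Cntn4, a contactin of cell adhesion, had 0, 2 and 0 against 2148, 8297 and 1190. The log2 fold changes of these 5 genes lay between 8.36 (Dab2) and 12.44 (Ubqln1), with SE of 2.49 and 3.88.

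The genes that were lower include ones for proteins of the cytoskeleton, the proton pump, transcription and the matrix. Mtpn, myotrophin, which binds actin capping protein, had 2639, 973 and 403 CPM in the primordial and 93.6, 0.347 and 24.4 CPM in the primary libraries (log2 fold change -5.08 ± 1.95 SE). Atp6v1g1, a subunit of the vacuolar proton pump, had 626, 625 and 59.3 CPM against 7.35, 11.6 and 4.57 CPM (-5.80 ± 2.65 SE on the log2 scale). Vezf1, a zinc finger transcription factor known from endothelium, had 752, 2172 and 1447 CPM against 454, 85.0 and 240 CPM. Fbn1, the fibrillin of extracellular microfibrils, had 430, 378 and 1588 CPM against 167, 198 and 225 CPM. These last 2 genes were well detected in all 6 libraries, with log2 fold changes of -2.49 ± 1.32 (SE) for Vezf1 and -2.02 ± 1.23 (SE) for Fbn1. Without primordial replicate 3, the highest library for Fbn1, the value of Fbn1 was -1.02.

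Ankra2, an ankyrin repeat gene, had 465, 26.3 and 9.23 CPM against 5.54, 0.347 and 4.29 CPM. Tspan5, a tetraspanin, had 40.6, 470 and 143 CPM against 17.2, 5.08 and 1.04 CPM. Wscd2 had 210, 140 and 16.6 CPM against 0.187, 2.17 and 2.15 CPM. In these 3, as in Mtpn and Atp6v1g1, the replicates of a stage differed widely. The remaining genes rest on few libraries. Klhl29, a kelch-like gene, had 3, 5017 and 1 counts and Sh3gl3, an endophilin, 8, 2044 and 5 in the primordial libraries, and both had 0 in all 3 primary libraries, so primordial replicate 2 carries them. Vcp-rs, a processed pseudogene related to Vcp whose reads may be shared with it, had 1300, 522 and 1 counts against 0, 0 and 1.

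**Figure D2:**
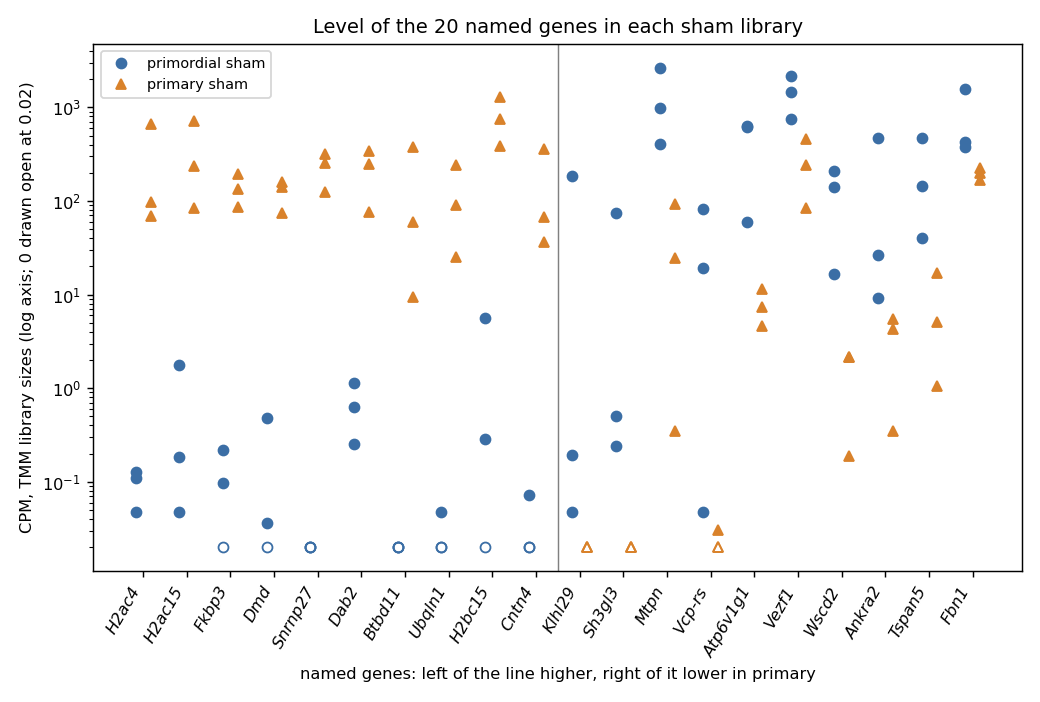
Level in CPM (log axis) of the 20 named genes in each of the 3 primordial (circles) and 3 primary (triangles) sham libraries. Zeros are drawn open at the bottom, and the 10 genes that were higher in the primary libraries stand left of the line. H2ac4 lies at 0.0481 to 0.127 CPM in the primordial libraries and at 69.9 to 669 CPM in the primary ones, whereas Klhl29 and Sh3gl3 are carried by a single primordial library.

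The separation was not found in the NTY libraries. They took part in the choice of these genes through the filter and the spread of the fit, but not through their stage difference. None of the 20 named genes was without overlap between primary and primordial NTY libraries, and the log2 fold change kept its sign in NTY for 6 of the 10 that were higher in sham and for 5 of the 10 that were lower. H2ac4 had 2031, 5597 and 115805 counts in the primordial NTY and 9238, 39332 and 18871 in the primary NTY libraries, so there it was abundant at both stages. Its stage difference differed between NTY and sham by -12.54 on the log2 scale (edgeR interaction test, adjusted p = 0.0238; 5.71e-05 to 0.138 in 4 alternatives, the highest with limma voom). For the other 19 genes the adjusted p of that difference was 0.153 or more.

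Over all genes tested, 340 (3.23%) were higher and 485 (4.61%) were lower in every primary than in every primordial NTY library. Higher in both treatments were 42 genes, 3.20% of the 1313 in sham and 12.4% of the 340 in NTY, and lower in both were 10, 5.46% of the 183 and 2.06% of the 485. Higher in sham but lower in NTY were 60 genes, 4.57% of the 1313. These shares lie near the shares of all genes tested, so the genes without overlap in sham were met in NTY about as often as other genes.

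Histone genes were followed along the cluster on chromosome 13, since H2ac4, H2ac15 and H2bc15 lie in it. Replication-dependent histone genes are compact, lack introns, stand in groups and are transcribed mainly in S phase, while variant genes elsewhere are used at other times. Their sequences are close to each other, and reads shared between copies may have been split or dropped in counting, so levels of single copies are uncertain. Of 46 histone genes of the cluster 43 were tested, and 11 of them (25.6%, against 12.5% of all genes tested) were higher in every primary library and 0 lower. The 3 genes that led to the cluster are among the 11, and without them 8 of 40 (20%) were higher, with a median log2 fold change of 0.30. The 11 were 4 of 8 H2A genes, 3 of 12 H2B genes, 3 of 9 H3 genes, 1 of 5 H1 genes and none of 9 H4 genes.

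The summed level of the cluster overlapped between the stages. The summed level of the 46 genes was 10585, 11446 and 9971 CPM in the primordial and 6611, 19849 and 14843 CPM in the primary libraries, of which primary replicate 1 was the lowest of all. At least 10 counts were found for 23, 28 and 27 of the copies in the primordial and for 42, 40 and 45 in the primary libraries. Over all genes those numbers were 5025, 6862 and 6905 against 9784, 7489 and 10241, so wider detection in the primary libraries was not confined to the cluster. Whether it was wider for the cluster than for other genes was not tested. The median log2 fold change of the 43 genes was 0.63 with TMM and 0.05 with RLE, against 0.29 and 0.00 for all genes. Of the 19 other histone genes, 13 were tested, and 1 was higher, the variant gene H2ax, and 1 lower, H3f3b, which encodes histone H3.3. H2ax overlapped between the stages with RLE, and H3f3b overlapped with plain totals and in TPM.

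As the lists were drawn up, the 15 H2A genes of the histone clusters had 9 tested, 4 higher (H2ac4, H2ac11, H2ac13 and H2ac15) and 0 lower, with a median log2 fold change of 4.72. H2ac4 and H2ac15 had already been named by their small p and lack of overlap, and without them 2 of 7 (28.6%) were higher, with a median of 2.58. The same 4 were counted with RLE, with plain totals and in TPM. H2ac11 had 0, 0 and 22.7 CPM against 75.4, 401 and 122 CPM, and H2ac13 0, 0.146 and 0 CPM against 207, 30.5 and 0.521 CPM. The 50 other core and linker histone genes had 47 tested, 8 higher and 1 lower, with a median of 0.24, which was -0.13 with RLE.

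Some of the 11 genes are neighbours. H2ac15 (minus strand, from 21753435 to 21753827) and H2bc15 (plus strand, from 21754123 to 21754503) point away from each other with 295 bases between them, and H1f5 is the next histone gene after them. H1f5, a linker histone, had 0.191, 0 and 0.192 CPM against 0.529, 12.9 and 11.1 CPM. H2bc3, H2ac4 and H3c2 are likewise 3 histone genes in a row on the plus strand. H2bc3 had 0.0636, 15.9 and 0.144 CPM against 225, 1034 and 563 CPM, and H3c2, an H3 gene, had 0.0636, 12.2 and 0 CPM against 186, 378 and 132 CPM. Primordial replicates 1 and 3 held at most 28 counts of any of these 6 genes, while primordial replicate 2 held 436 of H2bc3, 333 of H3c2 and 155 of H2bc15. Other pairs did not go together, such as H2ac11, which is among the 11, and H2bc11, with 269 bases between them. H2bc11 overlapped, with 0, 693.5 and 2.84 CPM against 165, 552 and 852 CPM. H2bc14 also overlapped, with 943, 1.17 and 0.529 CPM against 287, 802 and 484 CPM. Its neighbour H2ac14 did not pass the filter.

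**Figure D3:**
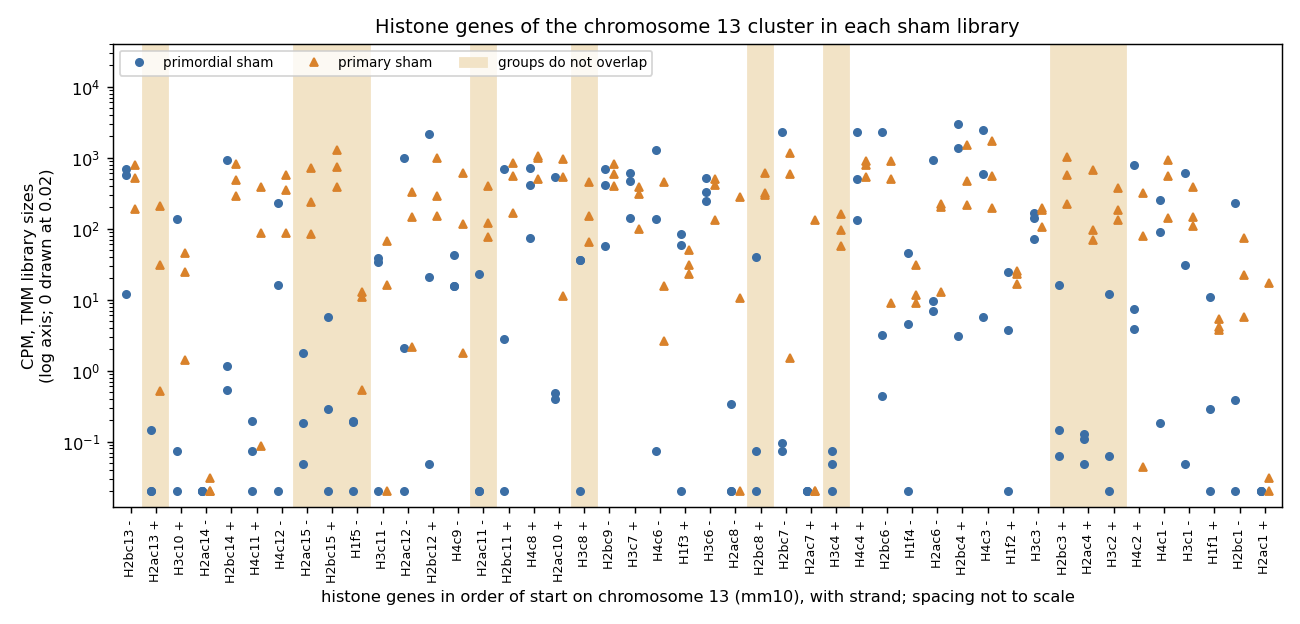
Level in CPM (log axis) of the 46 histone genes of the chromosome 13 cluster in the 3 primordial (circles) and 3 primary (triangles) sham libraries, in order of position, with strand signs and zeros drawn at the bottom. Shaded are the 11 genes without overlap, which include H2ac15, H2bc15 and H1f5 side by side and H2bc3, H2ac4 and H3c2 side by side.

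The promoters of H2ac4 and of the divergent pair are shown because these 3 genes are among the named ones. The sequences are from RefSeq on GRCm38.p6 and cover 250 bases before to 50 after the annotated start. The window of H2ac4 is chr13:23750838-23751137 and that of H2bc15 is chr13:21753826-21754125, both on the plus strand, and the latter spans the stretch between H2bc15 and H2ac15. Capitals mark CCAAT and TATAAA on either strand.
H2ac4: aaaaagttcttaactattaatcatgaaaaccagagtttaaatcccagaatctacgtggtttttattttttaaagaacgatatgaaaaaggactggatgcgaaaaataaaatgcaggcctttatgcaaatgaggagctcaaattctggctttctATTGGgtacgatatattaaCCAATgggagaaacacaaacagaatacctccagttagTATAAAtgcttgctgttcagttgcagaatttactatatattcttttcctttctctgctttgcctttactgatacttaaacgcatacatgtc
H2bc15: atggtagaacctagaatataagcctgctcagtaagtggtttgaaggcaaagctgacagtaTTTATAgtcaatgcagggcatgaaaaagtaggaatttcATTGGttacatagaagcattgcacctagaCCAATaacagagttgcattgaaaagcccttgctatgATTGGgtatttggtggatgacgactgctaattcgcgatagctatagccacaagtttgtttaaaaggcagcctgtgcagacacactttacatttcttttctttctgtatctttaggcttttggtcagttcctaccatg
CCAAT on either strand was found 2 times in the first and 3 times in the second window, and TATAAA 1 time in each. Of the 43 tested genes of the cluster 40 matched a RefSeq promoter, and CCAAT stood in 34 of them (85.0%) and TATAAA in 25 (62.5%). Among the 11 genes that were higher it was 11 and 8. Of 32544 windows of the same length over the genome, 37.4% held CCAAT and 13.6% TATAAA, so these letters go with histone promoters of the cluster in general. A match is not evidence of a bound factor.

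The remaining results are given by lists of genes with a known role. In all, 39 lists were drawn up, with 777 different genes, of which 658 were tested. Of these 658, 78 (11.9%) were higher and 17 (2.58%) lower in every primary library, close to the 12.5% and 1.74% of all genes tested. H2ac4 was the gene of the lists that passed the edgeR test, so the genes below are described by their values.

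**Figure D4:**
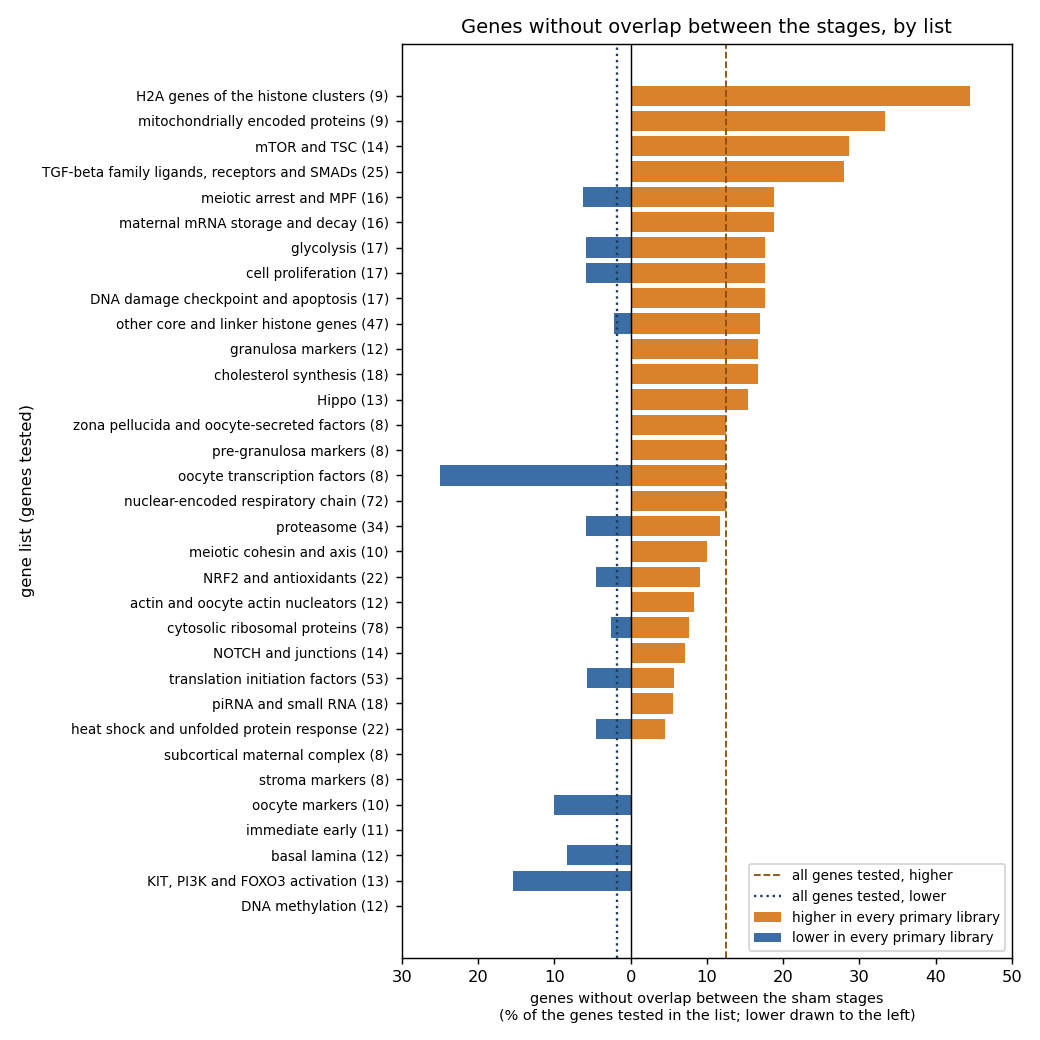
Share of genes without overlap between the sham stages in each list with at least 8 genes tested, in percent of the genes tested (number in brackets), with genes higher in every primary library to the right and lower to the left. Dashed and dotted lines mark the 12.5% and 1.74% of all genes tested, and the H2A genes have the longest bar to the right with 4 of 9. Of these, H2ac4 and H2ac15 were already named for their lack of overlap. Without them it is 2 of 7 (28.6%), below the 3 of 9 (33.3%) of the mitochondrially encoded genes.

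Oocyte markers had no direction that all libraries shared, and none passed the test. Of the 10 markers 1 had a log2 fold change above 0, and the median was -0.74 with TMM and -0.90 with RLE, against 0.29 and 0.00 for all genes tested. For Dazl, Zp3, Gdf9 and Nobox that sign rests on primordial replicate 2, the highest of the 6 libraries in each. In NTY the median of the markers was 1.53, with 2 genes higher and 0 lower without overlap. Figla, a transcription factor needed to form follicles, was lower in CPM in every primary library, with 8, 37 and 12 counts against 15, 1 and 5, but its groups overlapped with plain totals and in TPM. Gdf9, an oocyte growth factor that acts on granulosa cells, had 2.04, 258 and 0.240 CPM against 64.8, 45.9 and 67.6 CPM. Zp3, a protein of the zona pellucida, had 7.70, 77.0 and 3.03 CPM against 16.9, 26.0 and 23.8 CPM. Both were even among the primary libraries and high in primordial replicate 2 only, so the groups overlapped. Kit, the receptor on the oocyte, had 9.86, 11.1 and 260 CPM against 222, 3.82 and 36.5 CPM.

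Of the zona and oocyte-secreted factors, 8 of 10 were tested, 1 was higher and 0 lower (median -0.08). The gene was Bmp6, a growth factor of oocytes, with 157, 6 and 0 counts against 1466, 2449 and 2511. Of the oocyte transcription factors, 8 of 14 were tested, 1 was higher (Obox5, with at most 11 counts in any library) and 2 were lower (Figla and Foxo3, median -1.02). None of the 8 genes of the subcortical maternal complex was without overlap (median 0.00), nor of the 12 DNA methylation genes tested (median -0.19).

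Genes of stored RNA and of meiosis included several with few counts in some primordial libraries. Of the 16 maternal mRNA genes 3 were higher and 0 lower (median 0.42). Patl2, a repressor of translation in oocytes, had 0, 0 and 0 counts against 132, 6 and 227, and Igf2bp3, an RNA-binding protein, had 0, 1 and 40 against 416, 210 and 1852. Cnot7, a deadenylase, was measured in all 6 libraries, with 90.9, 25.3 and 98.6 CPM against 165, 196 and 111 CPM, and overlapped with RLE. Of the 16 tested genes of meiotic arrest and its release, 3 were higher and 1 lower (median 0.17).

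Cdc25a, a phosphatase that activates cyclin-dependent kinases, had 1.08, 3.03 and 0.577 CPM against 23.4, 94.5 and 20.8 CPM. Cdc25b, a related phosphatase needed to resume meiosis in oocytes, had 0, 27 and 11 counts against 305, 818 and 48. Cdc20, an activator of the anaphase-promoting complex, had 147, 0 and 0 counts against 587, 471 and 588 and overlapped with RLE. All 3 were detected in every primary library. Pde3a, the phosphodiesterase that lowers cyclic AMP in the oocyte, was lower, with 71.2, 42.6 and 138 CPM against 40.3, 10.8 and 8.68 CPM, though not with plain totals or in TPM. Of 10 tested genes of meiotic cohesin and axis 1 was higher, the cohesin subunit Rad21, with 5, 2 and 4 counts against 5034, 6082 and 939 (median of the list -1.40). Of 18 small RNA genes 1 was higher, Tdrkh, a Tudor protein of the piRNA pathway, and 0 lower (median -0.09). With RLE 0 were higher and 3 lower (median -0.40).

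The genes of KIT, PI3K and FOXO3 signalling held no gene that was higher and 2 of 13 that were lower, Foxo3 among them (median -0.17). Foxo3, which holds follicles at rest, had 2263, 846 and 1199 CPM in the primordial and 618, 816 and 567 CPM in the primary libraries (log2 fold change -1.11 ± 1.07 SE, adjusted p = 1.0, edgeR). It was among the well measured genes, with at least 18482 counts in each library, but its groups overlapped with plain totals and in TPM.

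Of the 14 mTOR and TSC genes 4 were higher and 0 lower (28.6%, against 12.5% of all genes tested), although the median was -0.27 and 6 of 14 lay above 0. Tsc1, the TSC subunit that restrains mTOR, had 3.37, 15.2 and 1.20 CPM against 137, 514 and 82.2 CPM. Rps6kb1, the S6 kinase, had 0.0636, 0.0731 and 22.9 CPM against 129, 510 and 54.0 CPM. Eif4ebp1, the inhibitor of cap-dependent translation that mTOR switches off, had 0, 0 and 0.192 CPM against 93.3, 7.51 and 68.0 CPM. The genes that were higher thus include an inhibitor of mTOR and targets of it. Rps6, the substrate of the S6 kinase, differed less, with 14.0, 14.5 and 26.7 CPM against 29.5, 43.1 and 34.7 CPM, and overlapped with RLE. Of the 13 Hippo genes tested 2 were higher, the kinase Stk3 and its cofactor Mob1a, and 0 lower (median 0.74). Mob1a had no count in the primordial libraries and 2491, 13 and 990 in the primary ones.

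The TGF-beta family had 7 of 25 tested genes higher and 0 lower (28.0%, against 12.5% and 1.74%), with 19 of 25 above 0 and a median log2 fold change of 1.56, which was 1.16 with RLE. The list shares Inha, Inhba, Inhbb, Fst, Amh and Amhr2 with the granulosa markers, all above 0, and without these 6 it had 13 of 19 above 0, a median of 0.73 and 6 higher. The count of the full list was 6 with RLE, 8 with plain totals and 7 in TPM. Among the ligands and their subunits, Inha, the alpha subunit of inhibin made by granulosa cells, had 0, 379 and 946 counts against 6712, 2041 and 18330. Tgfb3 had 0, 1 and 17 counts against 1026, 1643 and 874, and Bmp7 had 0, 0 and 33 against 546, 696 and 255. All 3 ligand genes were detected in every primary library and were missing from at least 1 primordial library.

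Among the receptors, Bmpr1a, a type I receptor for bone morphogenetic proteins, had 1.08, 0.475 and 1.15 CPM against 140, 26.3 and 115 CPM. Tgfbr1 had 0.191, 0.804 and 0.384 CPM against 114, 0.825 and 184 CPM, so primary replicate 2 stood at the level of the primordial libraries, and the groups overlapped with RLE and in TPM. Acvr2a, a receptor for activins, rested on a single library, with 0, 1 and 0 counts against 2633, 8 and 15. Smad7, an inhibitor of the pathway, had 0, 0.0731 and 23.2 CPM against 28.2, 91.9 and 44.9 CPM. Smad4, the shared SMAD and by TPM the most abundant gene of the list, had 1181, 451 and 1489 CPM against 580, 1601 and 467 CPM and showed no separation. In NTY 1 gene of the list was higher and 2 were lower, and Inha was 1 of the lower ones.

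Among the granulosa markers 10 of 12 tested genes had a log2 fold change above 0 (median 2.04, or 1.72 with RLE), and 2 were without overlap, both higher. In NTY the median was -1.50, with Amhr2 higher and Amh and Inha lower without overlap. The 2 in sham were Inha and Gja1, the connexin of granulosa gap junctions, which had 129, 67.1 and 176 CPM against 562, 196 and 819 CPM. Gja1 overlapped with RLE. The 2 genes below 0 were Foxl2 and Wt1. Foxl2, the transcription factor of granulosa identity, had 0, 308 and 858 CPM against 111, 350 and 110 CPM, and Wt1 had 587, 326 and 2210 CPM against 291, 994 and 403 CPM. Amh, the hormone of growing follicles, stayed at 9.20 CPM or less in all 6 libraries.

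Of 8 pregranulosa genes and of 3 surface epithelium genes tested, 1 each was higher, the same gene Krt18, with 0 in the primordial libraries and 7, 181 and 80 counts in the primary ones (medians 2.70 and 9.37, the latter 4.56 with genes at 0 set to the 3-count floor). Of 14 NOTCH and junction genes 1 was higher, Gja1 (median -0.28). Hsd3b1, a steroid synthesis enzyme, was 1 of 6 tested theca and steroid genes that was higher, with 0, 0 and 2 counts against 59, 17 and 210 (median 1.36). Acta2, smooth muscle actin, was 1 of 5 tested smooth muscle and pericyte genes, with 1, 8 and 416 counts against 2596, 2954 and 1504 (median -0.73).

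No stroma gene of 8 (median -0.27), endothelium gene of 3 (median -7.10) or leukocyte gene of 3 (median 0.00) was without overlap. The leukocyte median is the value of Csf1r, which had no count in any of the 6 libraries, so it measures nothing. No red blood cell gene passed the filter. Of 12 basal lamina genes 1 was lower, the collagen gene Col4a2, with 91.5, 21.2 and 145 CPM against 12.6, 14.9 and 3.07 CPM (median -0.38).

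Cell cycle genes went in both directions. Of 17 tested proliferation genes 3 were higher and 1 lower (median 0.91). Top2a, the topoisomerase of dividing cells, had 155, 71.3 and 71.2 CPM against 297, 442 and 314 CPM. Ccna2, cyclin A, had 8.91, 6.87 and 0 CPM against 9.90, 63.5 and 39.2 CPM. Both overlapped with RLE, while Rrm2, a subunit of ribonucleotide reductase, with 0, 34 and 0 counts against 735, 3365 and 283, did not. Mcm2, of the replicative helicase, was lower, with 88.0, 166 and 214 CPM against 46.5, 74.4 and 72.8 CPM, but not with plain totals or in TPM.

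Genes of energy metabolism were near the shares of all genes tested, apart from the few mitochondrially encoded ones. Of 72 nuclear genes of the respiratory chain 9 were higher and 0 lower (12.5%, the share of all genes tested), with a median of 0.64. Most of them were sparse, such as Ndufb6, a subunit of complex I, with no count against 37, 225 and 60, and Atp5pb, of the ATP synthase, with no count against 121, 19 and 193. Uqcrc2, of complex III, was better measured, with 11.6, 10.7 and 0.240 CPM against 63.7, 33.9 and 28.8 CPM. Mitochondrially encoded genes were few in reads, with sums of 9.22, 19.4 and 28.6 CPM against 42.4, 24.3 and 105 CPM, and 3 of 9 tested were higher (mt-Nd2, mt-Atp8 and mt-Cytb, median 1.80), while mt-Nd3, mt-Co2 and mt-Co3 were at 0 in all 6 libraries.

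Of 17 glycolysis genes 3 were higher and 1 lower (median 0.20). Hk2, the hexokinase of the first step, had 0, 0 and 1 counts against 210, 5752 and 1843. Pgk1 had 13.7, 0.0731 and 35.9 CPM against 234, 71.5 and 271 CPM, and Eno1 had 30.0, 0.658 and 6.68 CPM against 59.3, 304 and 101 CPM. Tpi1 went the other way, with 185, 83.9 and 155 CPM against 15.3, 0.217 and 63.8 CPM, though not with plain totals. Enzymes of a single pathway were thus found on both sides.

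Of 18 cholesterol synthesis genes 3 were higher and 0 lower (median 0.92). Dhcr7, the enzyme of the last step to cholesterol, had no count in the primordial and 168, 538 and 726 in the primary libraries, and Fdps, which makes farnesyl diphosphate, had 8, 37 and 22 against 181, 597 and 1639. Msmo1 had 0, 0 and 3 counts against 5, 701 and 82 and overlapped with RLE. The list summed to 22.3, 1188 and 906 CPM against 379, 1051 and 523 CPM, so primordial replicate 1 was low and the other 2 primordial libraries were not.

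Ribosomal and initiation factor genes had small shares of higher genes with TMM. Of 78 cytosolic ribosomal protein genes 6 were higher and 2 lower (7.69%, median 0.15), which became 0 and 4 with RLE and 11 and 1 with plain totals, so their direction depended on scaling. Of 53 translation initiation genes 3 were higher and 3 lower (median -0.48). Eif3e had 719, 1045 and 760 counts against 2891, 5819 and 3864, and Eif3k, of the same complex, had 3451, 11567 and 4328 against 2834, 1646 and 3112. These subunits of a single complex lay on opposite sides.

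Of 34 proteasome genes 4 were higher and 2 lower (median 0.26). Psmd14, the deubiquitinase of the lid, had 32, 1 and 0 counts against 1441, 9159 and 13144, and Psmb2, of the core, had 5.28, 16.6 and 0.288 CPM against 84.1, 715 and 32.9 CPM. Psmd3, of the lid, had 265, 377 and 377 CPM against 163, 150 and 86.2 CPM. Here too subunits of a single complex lay on both sides.

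Of 22 NRF2 and antioxidant genes 2 were higher, Hmox1 and Prdx6, and 1 lower (median 0.32). Sod1, the cytosolic superoxide dismutase, was the gene that was lower, with 130, 108 and 85.4 CPM against 27.6, 24.9 and 30.8 CPM, and its replicates were close together at both stages. Its log2 fold change was -1.96 ± 2.61 (SE) with an adjusted p = 1.0 (edgeR). Nqo1, a target of NRF2, was at 0 in all 6 libraries. Of 17 genes of DNA damage and apoptosis 3 were higher and 0 lower (median 1.74). Trp63, the p53 family member that guards oocytes, had 11.5, 0.110 and 26.1 CPM against 86.8, 95.1 and 26.8 CPM and overlapped with RLE, while Bak1 had 0, 0 and 2 counts against 10, 4 and 16.

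Of 22 heat shock and unfolded protein genes 1 was higher, Ddit3, with no count against 24, 261 and 270, and 1 lower, the chaperone gene Calr, with 591, 689 and 585 CPM against 285, 349 and 448 CPM (median -0.01), though Calr overlapped with plain totals. Of 12 actin genes 1 was higher, Actr2, of the Arp2/3 complex, with 0, 17 and 945 counts against 11627, 13136 and 1870 (median -0.59). No immediate early gene of 11 was without overlap (median 0.00), and their sums of 49.2, 595 and 393 CPM against 509, 74.9 and 436 CPM overlapped.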

How the data were processed

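RNA sequencing reads had been counted per gene by the authors, who deposited whole-number counts for 53715 genes, not normalized. The authors also deposited TPM values (counts divided by gene length, summing to 1000000 per library) for 28252 genes. The submitters' processing notes name Trim Galore 0.4.1, TopHat2, featureCounts and mm10. How reads matching several genes were treated, and whether strand was used, is not given in the sources used here. Symbols came from the deposited table (28242 genes) or GENCODE M21 (25378), and coordinates and transcript lengths from GENCODE M21.

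Counts were tested with the quasi-likelihood test of edgeR 4.0.16 (R 4.3.3, robust, TMM, filterByExpr by group, no replicate block, Benjamini-Hochberg) in a fit of the 12 primordial and primary libraries, with 8 residual degrees of freedom. The filter uses all 4 groups, so a gene could pass through a single group in which it was high. Alternatives used limma 3.58.1, DESeq2 1.42.0, RLE, other filters, a replicate block and leaving out libraries. Summaries and exact permutations (smallest possible p 0.1) ran in Python 3.11.15 with scipy 1.17.1, numpy 2.4.6 and pandas 2.3.3.

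Named were each gene with an adjusted p under 0.05, then the 10 genes of smallest p in each direction among those with a symbol, a mean of at least 10 CPM over the 6 sham libraries and no overlap, and genes of the 39 lists. Members and lists were chosen with earlier results of these data known. Fold bounds use 3 counts per library, averaged over the group at 0.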

Additional observations from a re-analysis of the deposited data

Results flagged for a closer look

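The stage difference of H2ac4 differed between the treatments. In sham its log2 fold change from primordial to primary follicle oocytes was 11.45 and in NTY it was -1.09, and the interaction of -12.54 had an adjusted p = 0.0238 (edgeR). It was singled out because the interaction passed the test. With RLE the adjusted p was 0.0189, with a replicate block 0.0281 and with DESeq2 without its Cook filter 5.71e-05, whereas limma voom gave -7.80 and 0.138, and the Cook filter left no p. The label codes leave it unclear whether primary NTY replicates 2 and 3 hold the same material. What part the sharing of reads between histone copies has in it was not tested.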

How the results depend on the processing

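The 1 gene called by edgeR in the sham stage difference stayed 1 with RLE, with a log2 fold change of at least 1 and without primordial NTY replicate 3. DESeq2 called 767 genes, or 526 with its Cook filter, limma voom 143 and limma on log2 TPM 4. edgeR called 0 with a filter of any count (1742 at an unadjusted p under 0.05), 0 among genes with at least 10 counts in each sham library (30 unadjusted) and 0 in the 6 sham libraries alone (455 unadjusted). Leaving out each library gave 0 to 2. For the interaction of stage and treatment, edgeR called 1 gene, DESeq2 1220 or 752 and limma voom 23. Apart from fewer genes or libraries, the cause was not tested.

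The 1313 genes higher in every primary library became 157 among genes with at least 10 counts in all 6 libraries, and stayed between 906 and 1529 under other scalings, any count or a gap of 2-fold. The 183 lower genes became 147 among genes with at least 10 counts in all 6 libraries, where the directions were thus nearly even, 116 with plain totals, 298 with RLE and 57 with a gap of 2-fold. Leaving out each library, chosen after seeing the data, gave 1620 to 2599 and 284 to 774, since fewer libraries overlap less often. The excess of 4016 detected genes ranged from 2884 to 4946 without single libraries and was 2907 at 10 counts, 2723 at 1 CPM and 3849 at equal depth. For the 20 named genes 217 values were obtained. The settings were RLE, DESeq2 without its Cook filter, limma voom, the sham libraries alone, the block and leaving out each library. Of these values 0 reversed, 191 kept their side of the threshold, 23 passed it and 3, all of H2ac4, lost it. H2ac4 also lost it with a filter of any count. The genes were chosen for a lack of overlap in these libraries, so the 0 follows largely from that rule and is no check of direction. Apart from those of H2ac4, the 191 values passed the threshold neither in the main fit nor in the alternative.

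A replicate block left 1 gene called in the stage difference and 1 in the interaction. For each gene the group mean was taken off its log2 level, and the remaining deviations were compared between stages. In libraries with the same replicate number these deviations correlated at -0.00611, -0.0137 and 0.00933, so such libraries were not treated as pairs. Depth limits genes near 3 counts.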
